A study of Mus musculus with 18 samples.

Results

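The genes Klf4 and Myc were followed here through the histone peak lists of Rb-deleted and control mouse embryonic fibroblasts (MEFs). Every peak that overlapped a fixed window of 120 kb set for each gene was taken, whatever its score or width. The Klf4 window ran from 55.48 to 55.6 Mb of chromosome 4 and the Myc window from 61.76 to 61.88 Mb of chromosome 15, in mouse build NCBIM37. They held 33 of the 225177 peaks in the 8 lists, 15 at Klf4 and 18 at Myc. Positions are counted from 1, and distances are taken from the midpoint of each window. Peaks within 10 kb of the midpoint are called near the gene and the others distal. No gene annotation of NCBIM37 was used, so that no transcription start was placed inside a peak. How far each gene lies from the midpoint of its window was not checked, so near the gene means near the midpoint.

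The MEFs carried a conditional knockout allele of Rb on a mixed B6;129 background. Cre cells received Adeno-Cre, an adenovirus carrying the recombinase that deletes Rb, and the control GFP cells received Adeno-GFP, which carries green fluorescent protein. All 8 libraries were labelled as having received no 4F construct, and the cells were grown for at most 3 passages after infection. Chromatin immunoprecipitation with sequencing was carried out against acetylated histone H3 (H3Ac), H3K4me3, H3K27me3 and H3K9me3. Each mark had 1 library per condition, and all 8 were labelled biological replicate 3. The differences below therefore have no replicate spread behind them and carry no p-value. The completeness of the Rb deletion and the fibroblast identity of the cells were not checked, because peak lists without an annotation do not show them. In bulk cells a smaller peak in fewer cells and a weaker mark in every cell cannot be told apart.

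Klf4 encodes a zinc finger transcription factor and Myc a basic helix-loop-helix transcription factor. Both belong to the set of factors long used to turn fibroblasts into pluripotent cells, and both are also expressed in ordinary fibroblasts, where Myc drives growth and Klf4 takes part in growth arrest. Rb binds the E2F transcription factors and holds back their targets, and Myc is a known E2F target. H3K4me3 and H3Ac mark active promoters, H3Ac also marks enhancers, H3K27me3 marks genes silenced by Polycomb, and H3K9me3 marks heterochromatin.

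The promoter of Klf4 is shown because the strongest marks in its window lay near the gene. It was taken from RefSeq in build GRCm38.p6, chr4:55532426-55532725 on the minus strand, and spans 250 bases before to 50 bases after the start site. These coordinates belong to another build than the peaks and were not converted. Capitals mark the motif matches.

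Klf4 promoter: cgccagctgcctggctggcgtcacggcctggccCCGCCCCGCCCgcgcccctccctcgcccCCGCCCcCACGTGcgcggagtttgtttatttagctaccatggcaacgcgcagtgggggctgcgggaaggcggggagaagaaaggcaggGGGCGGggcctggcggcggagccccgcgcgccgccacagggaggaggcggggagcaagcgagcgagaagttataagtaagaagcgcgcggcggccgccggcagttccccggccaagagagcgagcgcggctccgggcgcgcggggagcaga

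The letters GGGCGG, known as the GC box and bound by the Sp and Klf factors, occurred 4 times in it, 3 of them on the other strand. The first pair of these shared 1 base. The letters CACGTG, the E-box that Myc and its partner Max bind, occurred once, beginning at position -182 relative to the start site. Among all 32851 promoters of the same length, 35.7% held a GC box and 7.15% this E-box, on either strand. None of the 4 E2F motifs searched on both strands (TTTCCCGC, TTTCGCGC, TTTGCCGC and TTTGGCGC) was found in this promoter as an exact match, and 2.26% of all promoters held one. Near matches were not searched, so that an E2F-like site is not excluded. The sequence was 74.3% G and C, against a median of 52.7% over all promoters, and held 40 CG dinucleotides, against a median of 7. Of the 2 genes, 1 had an entry in the promoter table used here; Myc did not.

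The score of each peak is the authors' own, and it ranks peaks within a list. Raw scores are printed for both libraries, but only ranks within a list were compared. The lowest score lay between 50 and 50.02 in each of the 8 lists. A score of exactly 3100 was held by 25.4% of the Cre and 18.3% of the GFP H3K4me3 peaks, and by 5.19% of the Cre and 6.07% of the GFP H3Ac peaks. Peaks at 3100 could not be ordered by score among themselves. They were also wider than the few peaks scoring above 3100, with medians of 2961 against 2394 bases in the Cre and 2874 against 2128 bases in the GFP H3K4me3 list, and 4204.5 against 3277.5 bases in the Cre and 4099 against 3241.5 bases in the GFP H3Ac list. No source used here says whether 3100 stands below or above those scores, so that ranks were also taken with 3100 on top.

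Near Klf4, a broad H3K4me3 peak at the highest common score was present in both libraries. It spanned 6315 bases in Cre cells, from 55538834 to 55545148, and 6410 bases in GFP cells, from 55538688 to 55545097. Its score was 3100 in each list. By width it ranked 201 of 22621 in the Cre list, where 0.884% of H3K4me3 peaks were wider, and 132 of 23808 in the GFP list, where 0.550% were wider. It was 3.93 times the median width of the Cre list and 4.66 times that of the GFP list. The peak covered the midpoint of the window, and 98.5% of it in Cre cells and 98.6% in GFP cells lay under H3Ac peaks.

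A second H3K4me3 peak lay 587 bases further along in Cre cells and 609 bases further along in GFP cells. It spanned 1671 bases in Cre cells, from 55545736 to 55547406, and its score of 2434.94 lay above 68.2% of the Cre list. In GFP cells it spanned 1592 bases, from 55545707 to 55547298, and its score of 1395.33 lay above 65.4% of the GFP list. Each was close to the median width of its list, at 1.04 and 1.16 times the median. Near Klf4 the H3K4me3 peaks together covered 7986 bases in Cre cells and 8002 bases in GFP cells, which differed by 16 bases. The Cre over GFP width ratio was 0.985 for the broad peak and 1.05 for the second. Of the 19333 H3K4me3 regions with a peak in both lists, 26.2% and 43.6% had a lower ratio. The median ratio over those regions was 1.07.

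Acetylation near Klf4 was split into 3 peaks in each library, at the same places. The first spanned 5079 bases in Cre cells, from 55538275 to 55543353, and 5184 bases in GFP cells, from 55538173 to 55543356. It scored 2717.83 in Cre cells and 3216.25 in GFP cells. As deposited it ranked 3104 of 42660 Cre peaks and 37 of 48778 GFP peaks. With 3100 on top its GFP rank was 2997, and 92.7% of the Cre list and 93.9% of the GFP list scored lower. The second peak scored 709.33 in Cre cells and 874.33 in GFP cells, above 72.5% and 76.7% of their lists. The third scored 2355.9 in Cre cells and 2518.31 in GFP cells, above 90.9% and 91.3% of their lists.

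The gap between the first and second acetylated peaks was 47 bases in Cre cells, from 55543354 to 55543400, and 77 bases in GFP cells, from 55543357 to 55543433. The gap before the third was 784 bases in Cre cells and 652 bases in GFP cells, and it lay over the gap between the H3K4me3 peaks. The outer edges differed most on the side of higher coordinates, where Cre acetylation ended at 55547505 and GFP acetylation at 55548133, a difference of 628 bases. On the other side the edges differed by 102 bases. The third peak was accordingly narrower in Cre cells, 1621 bases against 2394 bases in GFP cells, a ratio of 0.677. Of the 33794 H3Ac regions with a peak in both lists, 11.6% had a lower ratio.

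Distal acetylation in the Klf4 window was limited to 1 place, from -13.2 to -11.2 kb relative to the midpoint. Cre cells had 1 H3Ac peak there of 1950 bases, from 55526815 to 55528764, whose score of 247.8 lay above 52.2% of the list. GFP cells had 2 H3Ac peaks 26 bases apart, at 55526931 to 55527938 (score 129.16) and 55527965 to 55528807 (score 142.81), above 34.2% and 37.3% of the list. The Cre peak overlapped no H3K4me3 peak. In GFP cells the second of the pair held an H3K4me3 peak of 567 bases, from 55527988 to 55528554. That peak scored 51.97, and 1.34% of the GFP H3K4me3 list scored lower.

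**Figure D1:**
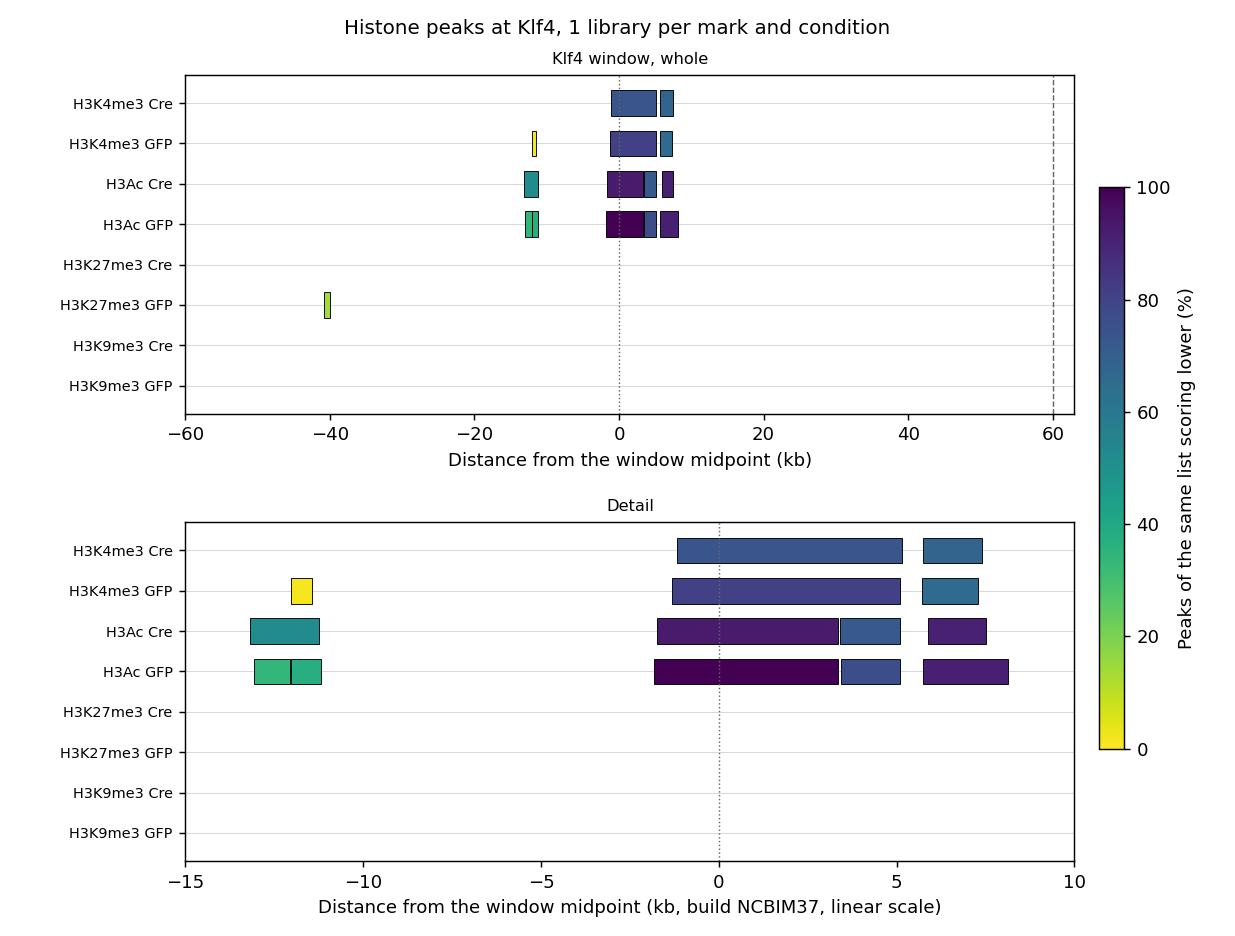
Peaks of the 4 marks in the Klf4 window by distance from its midpoint (kb), with Cre above GFP for each mark, the whole window on top and a closer view below. Colour gives the percentage of the same list that scores lower, as deposited; the near-gene peaks line up in both libraries, the distal H3Ac place lies from -13.2 to -11.2 kb, and the single H3K27me3 peak is in GFP cells.

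Near Myc, H3K4me3 formed 1 unbroken peak in each library. It spanned 6979 bases in Cre cells, from 61814803 to 61821781, and 7093 bases in GFP cells, from 61814870 to 61821962, with a score of 3100 in each list. By width it ranked 112 of 22621 Cre peaks and 75 of 23808 GFP peaks, so that 0.491% and 0.311% of peaks were wider. It was wider than the leading Klf4 peak in the Cre as in the GFP library. Edges differed by 67 bases at the start and 181 bases at the end. The Cre over GFP width ratio was 0.984, and 25.8% of the 19333 shared H3K4me3 regions had a lower ratio.

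Acetylation near Myc consisted of 2 main peaks in each library. The larger spanned 4675 bases in Cre cells, from 61817021 to 61821695, and 5852 bases in GFP cells, from 61816950 to 61822801, with a score of 3100 in each list. The smaller spanned 2074 bases in Cre cells, from 61814806 to 61816879, and 2199 bases in GFP cells, from 61814706 to 61816904. It scored 1395.97 in Cre cells and 2192.6 in GFP cells. These scores lay above 82.9% of the Cre list and 89.6% of the GFP list. Between them was a gap of 141 bases in Cre cells and 45 bases in GFP cells, and the H3K4me3 peak ran across it in both libraries.

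The acetylated stretch near Myc was shorter in Cre cells. It covered 6749 bases, against 8713 bases in GFP cells, a ratio of 0.775. In Cre cells it started 797 bases later and ended 1106 bases earlier. Part of the difference was a GFP H3Ac peak of 662 bases, at 61814009 to 61814670, which scored 51.95 and had no Cre counterpart. For the larger peak alone the ratio was 0.799, and 22.2% of the 33794 shared H3Ac regions had a lower one. The median ratio over those regions, which leave out peaks without a counterpart, was 0.962. It compares with the 0.799 of the larger peak and not with the 0.775 of the whole stretch. Over all chromosomes H3Ac peaks, with or without a counterpart, covered 75.9 Mb in Cre cells and 89.6 Mb in GFP cells. For the whole stretch near Klf4 the ratio of acetylated length was 0.910.

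Another region with both marks lay at the far end of the Myc window, 48.9 to 62.5 kb from the midpoint on the side of higher coordinates. Its H3K4me3 peak spanned 6579 bases in Cre cells, from 61868883 to 61875461, and 5743 bases in GFP cells, from 61869098 to 61874840, with a score of 3100 in each list. By width it ranked 163 among Cre peaks and 213 among GFP peaks. The Cre peak reached 215 bases further at the start and 621 bases further at the end, a ratio of 1.15, and 65.8% of the 19333 shared H3K4me3 regions had a lower ratio. The region was not assigned to a gene. In GRCm38.p6 the next gene beyond Myc on the side of higher coordinates is Pvt1, a long non-coding RNA gene.

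The distal Myc region opened with an H3Ac peak of nearly equal width in the libraries, 3725 bases in Cre cells from 61869540 to 61873264, and 3761 bases in GFP cells from 61869543 to 61873303. Its score was 3100 in each list. Beyond it, the acetylated peaks ranked lower in Cre cells. Cre cells had 2 H3Ac peaks 24 bases apart, at 61873656 to 61875748 (score 231.3) and 61875773 to 61877419 (score 154.97), above 50.6% and 39.7% of the list. GFP cells had 1 H3Ac peak of 4072 bases over the same stretch, from 61873483 to 61877554, with a score of 847.7, above 76.3% of the list.

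The next distal H3Ac peak crossed the end of the window. It spanned 2339 bases in Cre cells, from 61879791 to 61882129, and 2903 bases in GFP cells, from 61879586 to 61882488. It scored 425.47 in Cre cells and 833.25 in GFP cells. These scores lay above 63.8% of the Cre list and 76.0% of the GFP list. Between these peaks GFP cells had an additional H3Ac peak of 1054 bases, at 61878305 to 61879358, which scored 95.3, and Cre cells had a gap of 2371 bases. A lone GFP H3Ac peak of 814 bases lay 39.9 kb from the midpoint, from 61859480 to 61860293, with a score of 56.05. Over the whole distal region from 61868883 to 61882488, H3Ac covered 9804 bases in Cre cells and 11790 bases in GFP cells, a ratio of 0.832. The Cre H3Ac list also covered less over all chromosomes, 75.9 Mb against 89.6 Mb in the GFP list. A shorter covered length in the Cre list was thus not particular to this region. Read depth is unknown, so these lengths do not show how much acetylation the cells held.

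**Figure D2:**
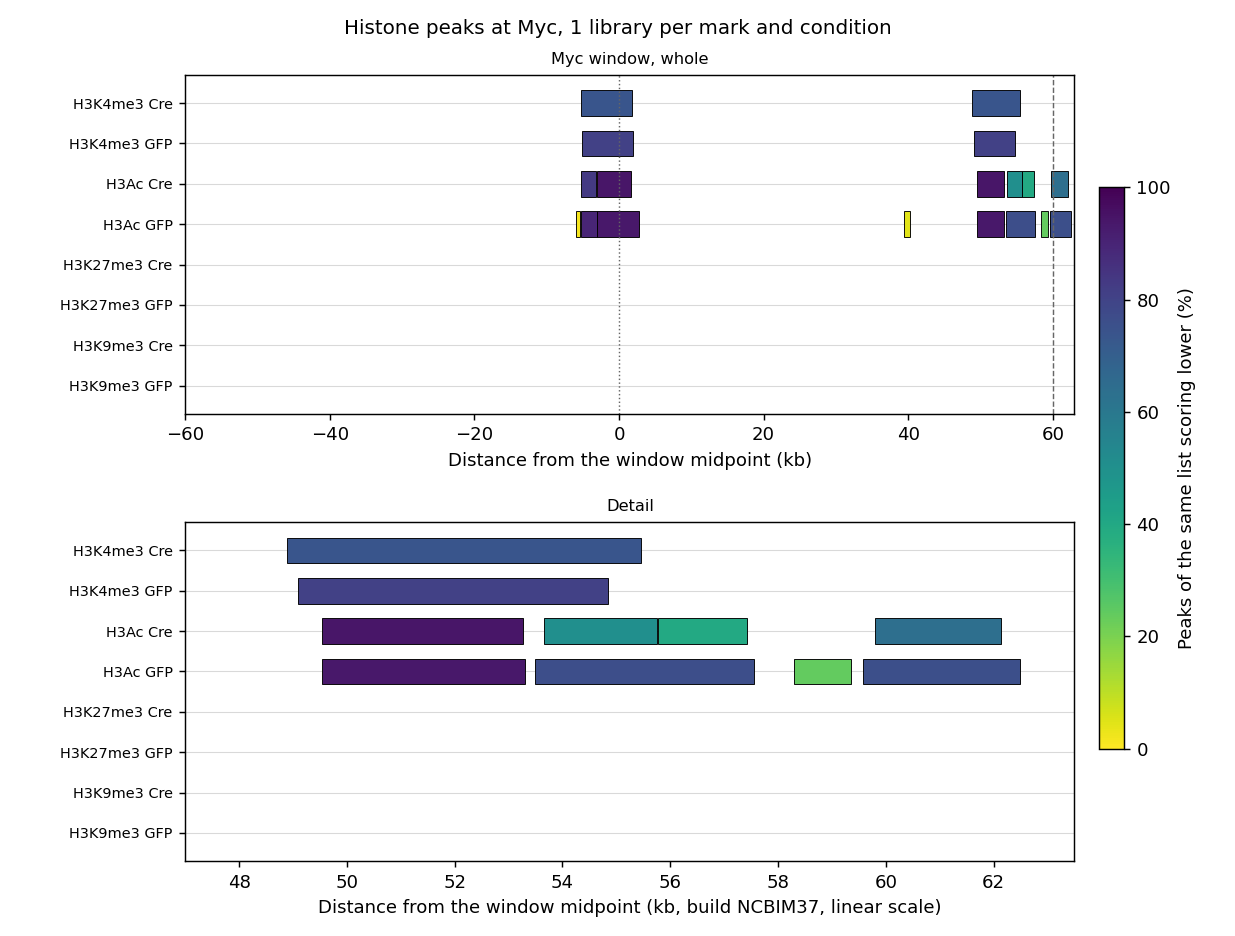
Peaks of the 4 marks in the Myc window by distance from its midpoint (kb), with Cre above GFP for each mark, the whole window on top and the distal region below; the dashed line is the end of the window. Colour gives the percentage of the same list that scores lower, as deposited; the distal H3Ac peaks after the first are darker, that is higher in rank, in GFP cells where Cre cells have a counterpart, and no H3K27me3 or H3K9me3 peak is present.

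Among the H3K4me3 peaks, the leading ones at Klf4 and Myc and the distal one at Myc were alike in being unusually wide. Their widths were 6315, 6979 and 6579 bases in Cre cells and 6410, 7093 and 5743 bases in GFP cells, and fewer than 1% of the peaks in either list were wider than any of them. The narrow second Klf4 peak and the GFP distal Klf4 peak did not share this. Score did not separate the 3 wide peaks, because all stood at 3100.

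**Figure D3:**
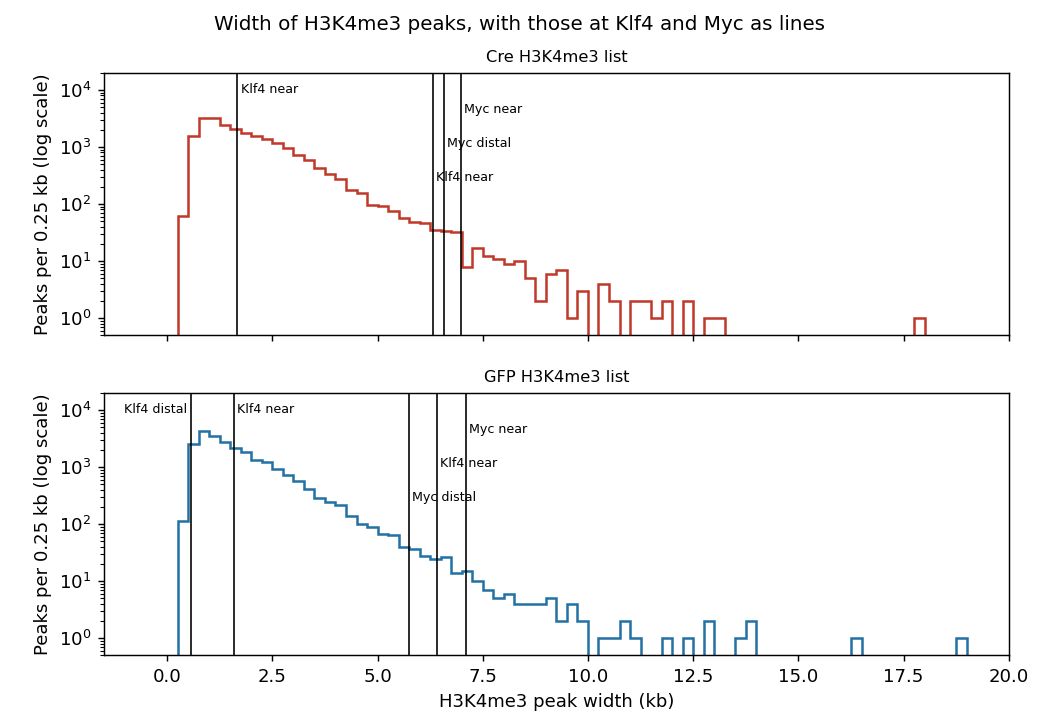
Number of H3K4me3 peaks by width (kb, in steps of 0.25 kb, log scale on the vertical axis) in the Cre list above and the GFP list below, with the peaks of the Klf4 and Myc windows as black lines. The near-gene peaks of Klf4 and Myc and the distal Myc peak, between 5743 and 7093 bases, stand in the far tail in both lists, and the second Klf4 peak, 1671 bases in Cre and 1592 bases in GFP cells, near the bulk.

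Cre and GFP ranks were set side by side for regions that both lists share. A percentile here is the position of a region's highest score among these regions, with ties shared. The distal Klf4 H3Ac region, taken by the higher of the GFP pair, stood at the 41.9 percentile in Cre cells and the 20.9 percentile in GFP cells, a difference of 21.0 points, and 93.2% of the 33794 regions had a lower difference. The Myc region from 61873483 to 61877554 stood at the 40.0 percentile in Cre cells and the 66.8 percentile in GFP cells, a difference of -26.7 points, and 4.70% of the regions had a lower difference. The region at the window's end stood at 55.6 in Cre cells and 66.4 in GFP cells, a difference of -10.8 points. The distal acetylated region thus stood higher by rank in Cre cells at Klf4, and these regions lower at Myc. The first distal Myc peak was tied at 3100 in each list. Its 1.23 points reflect only how many regions held that score or a higher one. With 1 library each, the size of these differences cannot be set against a replicate spread, and the middle 90% of all H3Ac regions differed by -26.0 to 23.7 points. Among the H3Ac regions of the windows, only the Myc region from 61873483 to 61877554 lay outside that range.

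The first acetylated peak near Klf4 differed by -9.00 points as deposited and by -0.35 points with 3100 on top, the second by -1.40 and the third by 1.11 points. The smaller peak near Myc differed by -6.51 points, and the second Klf4 H3K4me3 peak by 4.44 points. Regions at 3100 in both lists all received the same value, -3.67 points for H3K4me3 and 1.23 points for H3Ac. The larger H3Ac peak near Myc was among them. That value depends only on how many regions held 3100 or more in each list, and measures no change at these places. The middle 90% of the 19333 shared H3K4me3 regions differed by -14.0 to 17.1 points.

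**Figure D4:**
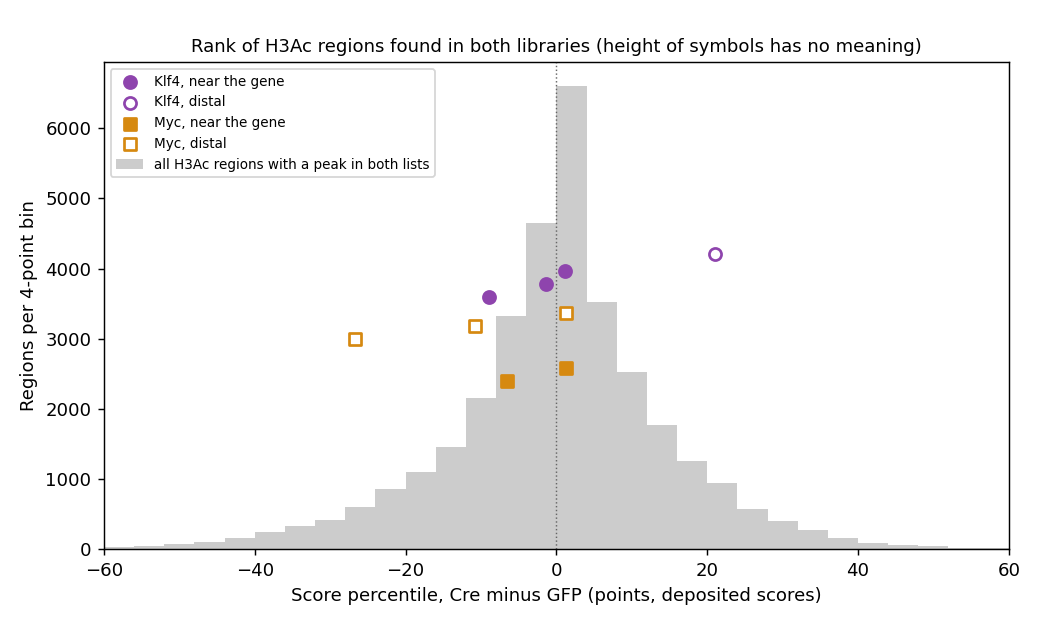
Difference in score percentile, Cre minus GFP (points, horizontal axis), for all 33794 H3Ac regions with a peak in both lists (grey bars, regions per bin of 4 points). Symbols mark the regions of the Klf4 window (circles) and the Myc window (squares), filled near the gene and open where distal, at heights without meaning. The open circle lies at 21.0 and the leftmost open square at -26.7 points. The squares at 1.23 points are regions tied at 3100 in both lists, where no change was measured.

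Most peaks of the windows were found in both libraries. All 4 Cre H3K4me3 peaks had an overlapping GFP peak, where 12.6% of the whole Cre list and 5.30% of its peaks scoring at least 100, as these 4 did, had none. Of the 5 GFP H3K4me3 peaks 1, the distal Klf4 peak scoring 51.97, had no Cre counterpart, where 10.7% of the GFP list and 41.7% of its peaks scoring below 100 had none. All 10 Cre H3Ac peaks had a GFP counterpart, where 15.4% of the Cre list and 5.85% of its peaks scoring at least 100, as these 10 did, had none. Of the 13 GFP H3Ac peaks 3 had no Cre counterpart, close to the 26.6% of the whole list, and all 3 lay in the Myc window. Each of these 3 scored below 100, and 62.5% of the 12501 GFP H3Ac peaks below that score had no Cre counterpart. No Cre H3Ac peak in the windows scored below 100, the lowest being 154.97. The Cre H3Ac list was shorter over all chromosomes, with 42660 peaks against 48778 in the GFP list, and with equal numbers of top-scoring peaks from each list 1 GFP H3Ac peak at Myc and 0 GFP H3K4me3 peaks at Klf4 were without a Cre counterpart. With those numbers the length covered by H3Ac at Myc was 14.4 kb in Cre cells and 17.4 kb in GFP cells, a ratio of 0.831, against 0.766 with the whole lists.

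Marks of silent chromatin were nearly absent from the windows. A single H3K27me3 peak was present, in the GFP list, from 55499138 to 55499978 in the Klf4 window, centred at -40.4 kb from the midpoint. It spanned 841 bases and scored 60.49, above 13.6% of the GFP H3K27me3 list. It had no Cre counterpart, and neither had 30.5% of that list and 54.6% of its peaks scoring below 100. It overlapped no peak of another mark. The Cre H3K27me3 list had no peak in either window, and neither H3K9me3 list had one. Absence of H3K9me3 was the usual state: of the windows of the same length that held H3K4me3, 12.3% in Cre cells and 24.3% in GFP cells had any H3K9me3 peak, and 52.9% in Cre cells and 55.3% in GFP cells had any H3K27me3 peak. Just outside the Klf4 window, H3K27me3 peaks ended 61.0 kb from the midpoint in Cre cells, with a score of 240.6, and 61.2 kb from it in GFP cells, with a score of 87.99. Around Myc the nearest H3K27me3 peak lay 1142 kb from the midpoint in Cre cells, with a score of 317.44. In GFP cells it lay 174 kb from the midpoint, with a score of 94.97, again in the class below 100.

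The H3K4me3 and H3Ac peaks of the Myc window stood far from other H3K4me3. The nearest H3K4me3 peaks outside the window ended 799 kb before the midpoint and began 1798 kb after it, in Cre as in GFP cells. At Klf4 the corresponding distances were 106 and 124 kb in each library. Acetylation went on past the end of the Myc window, with the next H3Ac peak from 61884498 to 61886585 and a score of 152.47 in Cre cells, and from 61884621 to 61886685 and a score of 366.21 in GFP cells. These lie outside the window and are in none of the counts.

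Of the 120 kb at Klf4, H3K4me3 peaks covered 7.99 kb in Cre cells and 8.57 kb in GFP cells, and H3Ac peaks 10.35 kb in Cre cells and 11.1 kb in GFP cells. At Myc the lengths were 13.6 kb in Cre cells and 12.8 kb in GFP cells for H3K4me3, and 14.4 kb in Cre cells and 18.8 kb in GFP cells for H3Ac. Over all chromosomes H3K4me3 peaks covered 43.4 Mb in Cre cells and 40.3 Mb in GFP cells. H3Ac peaks covered 75.9 Mb in Cre cells and 89.6 Mb in GFP cells. For comparison the genome was divided into 22584 windows of the same length, of which 9331 held a Cre and 9245 a GFP H3K4me3 peak. They followed a fixed grid and could hold only the edge of a peak, while the Klf4 and Myc windows were chosen for the genes. The shares below are therefore not a like-for-like comparison. Among the grid windows with H3K4me3, 96.1% had less H3K4me3 than the Myc window in Cre as in GFP cells, and 84.6% in Cre cells and 88.6% in GFP cells had less than the Klf4 window. For H3Ac the shares were 86.1% in Cre cells and 88.5% in GFP cells for Myc, and 75.9% in Cre cells and 72.7% in GFP cells for Klf4.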

How the data were processed

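The 8 deposited peak lists give chromosome, start, end, peak name and a score for each peak, and the deposited score has neither a header nor a unit. Per the submitters' processing notes, the peak caller MACS 1.4.1, the aligner BWA, and bedtools 2.16.2 and SAMtools 0.1.18 were among the tools, and the build was NCBIM37; the control libraries and thresholds are not given in the sources used here. Each list belongs to 1 sample. The other 10 samples of the series (RNA, Rb immunoprecipitation and input) were not analysed here. Read depth is unknown from these lists.

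Peaks overlapping each window by at least 1 base were kept; a counterpart is a peak of the other library that overlaps by at least 1 base. Covered length is clipped to the window, and widths are not. Shared regions are overlapping Cre and GFP peaks joined. Overlap code was tested on simulated data. All peaks in the windows were counted. The rule names, per window and library, the highest-scoring near-gene peak of each mark, the 5 highest-scoring distal H3Ac peaks and up to 10 peaks without a counterpart; the remaining near-gene peaks and the distal H3K4me3 peak at Myc are described as well. The genes, windows and rules were chosen with earlier results of these data known; joined regions and the rank with 3100 on top were added after the values were seen. Tables were handled with pandas 2.3.3 and NumPy 2.4.6 in Python 3.11.15, intervals came from SciPy 1.17.1, and matplotlib 3.10.9 drew the figures.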

Additional observations from a re-analysis of the deposited data

How the results depend on the processing

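Of 300 values recomputed under 8 alternatives, 247 stayed within 1.5 times the value given, or for shares within its exact 95% interval, which covers counting error only, and 0 reversed. Many of the 247 were counts or lengths of 0 for marks without a peak in the window, which these alternatives could not change. Only the Cre over GFP length ratios could reverse, so the 0 says nothing about the other values. The Cre over GFP length covered by H3K4me3 and H3Ac kept its direction under the 3 alternatives that bear on it. For H3Ac at Myc it was 0.885 at a score of at least 100, against 0.766 over all peaks. The ratio for H3K4me3 at Klf4, 0.932 over all peaks, all but vanished as a difference. It was 0.998 at a score of at least 100 and with equal numbers of top-scoring peaks. Among covered lengths, only that of GFP H3K27me3 at Klf4 moved by over 1.5 times; several counts did. With a score of at least 100, GFP H3K27me3 at Klf4 fell to 0 peaks and 0 kb, and GFP H3Ac at Myc to 5 peaks, 3 of them distal; GFP peaks without a counterpart fell to 0 for H3K4me3 and H3K27me3 at Klf4 and for H3Ac at Myc. With peaks within 1000 bases merged, the Klf4 window held 1 Cre H3K4me3 peak, with 1 counterpart in each library, and 2 Cre and 2 GFP H3Ac peaks, all with counterparts, 1 near the gene and 1 distal in each. The Myc window then held 3 Cre and 3 GFP H3Ac peaks, of which 3 and 2 had counterparts and 1 GFP peak had none, 1 and 1 were near the gene and 2 and 2 distal. With near the gene set to 5 kb, Klf4 had 2 distal Cre H3Ac peaks; with 20 kb it had 0 distal peaks in Cre and GFP cells and 5 GFP peaks near the gene. With equal numbers of top-scoring peaks, GFP peaks without a counterpart fell to 1 for H3Ac at Myc and to 0 for H3K4me3 at Klf4, and no other count or covered length moved by over 1.5 times. Asking for an overlap of at least 50% moved none of the counts of peaks with or without a counterpart.

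The share of the list scoring below the leading peak moved with the peaks ranked. Leaving out peaks scoring below 100 could only lower this share, because every leading peak scored above 100. For H3K4me3 at Klf4 and Myc it was 69.9% in Cre and 78.5% in GFP cells over peaks with a counterpart, 69.4% and 76.4% at a score of at least 100, and 74.6% and 81.7% with 3100 on top. For H3Ac at Klf4 it was 91.4% in Cre cells over peaks with a counterpart, 90.2% in Cre cells at a score of at least 100, and 93.9% in GFP cells with 3100 on top, against 99.9% as deposited. For H3Ac at Myc it was 93.3% in Cre and 91.0% in GFP cells over peaks with a counterpart, 92.4% and 91.2% at a score of at least 100, and 94.8% and 93.9% with 3100 on top. No paired analysis was possible because there was 1 library per mark and condition. The unknown depth limits what an absent peak shows.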
